A study of Mus musculus with 16 samples.

Results

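The T cell receptor complex and its partner genes were followed here in mouse leukemias that arise from B cell precursors. The 10 genes are the CD3 chains Cd3d, Cd3e, Cd3g and Cd247, the coreceptors Cd4, Cd8a and Cd8b1, the signalling adaptor Lat, the costimulatory receptor Cd28 and the receptor Cd5. They were chosen by name, with earlier results of these data known. Each was measured by 1 probe set annotated to that gene alone, so 10 of the 19938 genes tested are described. The values come from 16 arrays of mouse bone marrow RNA. There were 6 arrays of total marrow with leukemia from mice carrying 1 intact allele each of Bank1 and Pax5 (Bank1+/- + Pax5+/-, written Bank1/Pax5 leukemia), and 6 from leukemic Pax5+/- mice (Pax5 leukemia). The other 4 arrays hold pro-B and pre-B cells of wild-type mice (WT). Loss of 1 Pax5 allele is thus shared by both leukemia groups. Bank1 encodes an adaptor of B cell receptor signalling, and Pax5 encodes the transcription factor that holds cells in the B lineage. No treatment was applied, and all mice were kept in a conventional facility where common pathogens reached them. The labels give no age, no strain and no method for isolating the WT cells, whose cell type field reads leukemic against their title, source and tissue. The design text counts 3 WT mice, whereas 4 WT arrays have replicate numbers of their own and were used as 4 replicates.

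The T cell receptor recognises antigen through its variable chains, which cannot signal by themselves. They depend on the CD3 gamma, delta, epsilon and zeta chains (Cd3g, Cd3d, Cd3e and Cd247), whose cytoplasmic tails are phosphorylated by Lck and then bind the kinase Zap70. CD4 and CD8 bring Lck to the receptor, Lat gathers the downstream signalling enzymes, CD28 adds costimulation and CD5 dampens the signal. Several of these genes are also used outside T cells: Cd247 in natural killer (NK) cells, Cd4 in some dendritic cells, Lat in B cell precursors, platelets and mast cells, and Cd5 in B-1 cells. In bulk RNA, fewer cells of a type and less RNA per cell cannot be told apart.

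All levels are log2 probe set intensities, so a difference of 1 is a 2-fold change of signal, and levels of different genes are not comparable with each other. A mean below 6.96, the median of all named probe sets over the 16 arrays, is called dim. Differences were tested with limma over all 19938 genes and called at a Benjamini-Hochberg adjusted p under 0.05. The WT arrays were the most alike (r across genes from 0.993 to 0.997, against 0.923 to 0.984 among Bank1/Pax5 leukemias and 0.958 to 0.982 among Pax5 leukemias). Array 2 of Bank1/Pax5 leukemia and array 3 of Pax5 leukemia stood apart from their groups in several genes below, and results that changed without them are given as such. The markers of the labelled B cell precursors were high in WT, where the median over 11 measured markers was 11.85 to 12.12. It ran from 8.61 to 11.76 in Bank1/Pax5 leukemia and from 7.52 to 12.06 in Pax5 leukemia. The list holds Pax5 itself, whose level was the median on every WT array and on array 3 of Pax5 leukemia.

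Cd3g, Cd3d and Cd3e follow one another on chromosome 9 with no other protein-coding gene between them in the RefSeq table used. Cd3g and Cd3d are read in opposite directions. The 180 bases before each gene (RefSeq, build GRCm38.p6, 5′ to 3′ on the gene's own strand) are shown because Cd3g was called between the leukemia groups and its neighbours were not. They lie at chr9:44980432-44980611 on the minus strand for Cd3g, chr9:44981589-44981768 on the plus strand for Cd3d and chr9:45009664-45009843 on the minus strand for Cd3e. Capitals mark matches on either strand to the E-box, CANNTG, which E proteins bind, to the ETS core with letters GGAAG, to the GATA letters AGATAA, and to a RUNX match spelled TGTGGT.
Cd3g: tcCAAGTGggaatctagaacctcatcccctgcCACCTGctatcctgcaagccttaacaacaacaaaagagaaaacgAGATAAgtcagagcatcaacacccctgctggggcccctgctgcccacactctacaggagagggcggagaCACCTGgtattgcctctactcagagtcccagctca
Cd3d: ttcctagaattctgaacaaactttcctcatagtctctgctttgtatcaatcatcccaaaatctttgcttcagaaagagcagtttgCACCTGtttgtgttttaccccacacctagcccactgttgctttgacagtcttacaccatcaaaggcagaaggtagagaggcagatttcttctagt
Cd3e: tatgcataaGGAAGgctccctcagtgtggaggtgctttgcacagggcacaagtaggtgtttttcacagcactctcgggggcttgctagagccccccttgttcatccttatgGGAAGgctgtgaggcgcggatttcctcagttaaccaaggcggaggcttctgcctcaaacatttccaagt
Cd3g held 3 E-boxes and 1 GATA match, Cd3d held 1 E-box, and Cd3e held 2 ETS matches. None of the 3 held a RUNX match, and neighbouring matches did not overlap. Of 32851 RefSeq promoters in the 180 bases before their start site, 54.12% held the E-box letters, 53.23% the ETS letters, 6.91% the GATA letters and 10.1% the RUNX letters. The Cd3d and Cd3e stretches end 17 and 52 bases before the table's start site, where the annotated span of the gene begins. These matches describe the letters and say nothing of binding.

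Cd3g, the gamma chain, was the member that differed most between the leukemia groups. It ran from 6.07 over a median of 7.80 to 9.67 in Bank1/Pax5 leukemia, against 5.73, 5.79 and 5.98 as the lowest, median and highest in Pax5 leukemia. WT arrays 1 to 4 had 7.31, 7.26, 7.34 and 6.59. Every Bank1/Pax5 array lay above every Pax5 array, with arrays 5 (9.67) and 6 (8.93) highest and array 2 (6.07) next to the Pax5 leukemias. All 6 Pax5 leukemia arrays were dim and lay below all 4 WT arrays. The mean of Cd3g was 4.09-fold higher in Bank1/Pax5 leukemia relative to Pax5 leukemia (log2 difference 2.03, SE 0.457, 95% interval 1.05 to 3.01, limma adjusted p = 0.0187). In a fit of these 2 groups alone the same difference missed the threshold (limma adjusted p = 0.0617). The SD was 1.32 over the Bank1/Pax5 arrays, 0.0918 over the Pax5 arrays and 0.361 over the WT arrays, and the fit assumes 1 spread for all groups. Data were simulated 3 times with each group's own spread and 200 of the 19938 genes changed by 1 on the log2 scale. There 20.8% of the calls in this comparison were false, although called at an adjusted p under 0.05. The false share depends on how many genes change, so this value need not hold for the real arrays. All calls of this comparison, Cd8b1 included, may thus carry more error than their adjusted p states.

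Against WT, Cd3g differed by 0.73 in Bank1/Pax5 leukemia (SE 0.511, limma adjusted p = 0.346) and by -1.30 in Pax5 leukemia (SE 0.511, limma adjusted p = 0.0784). Neither passed. The difference of Pax5 leukemia from WT passed when only those 2 groups were fitted (limma adjusted p = 0.000159), since the wide Bank1/Pax5 arrays then do not enter the spread. It also passed without Bank1/Pax5 array 2 (limma adjusted p = 0.0308) or array 5 (0.0312). In all, this difference passed in 5 of 27 alternative settings.

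Cd3e, the epsilon chain that pairs with both gamma and delta, had a smaller difference. Its lowest, median and highest levels were 6.82, 7.30 and 7.91 in Bank1/Pax5 leukemia and 6.48, 6.97 and 7.14 in Pax5 leukemia. WT arrays had 7.50, 7.05, 7.50 and 7.36. The leukemia groups overlapped, with Bank1/Pax5 arrays 4 and 5 highest. The difference between them was 0.44 (95% interval 0.0400 to 0.831, limma adjusted p = 0.178) and did not pass.

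Cd3d, the delta chain, was dim on all 16 arrays. It ran from 5.54 to 6.05 on the Bank1/Pax5 arrays, from 5.22 to 5.95 on the Pax5 arrays and from 5.54 to 5.74 on the WT arrays. The highest array of each leukemia group, array 5 of Bank1/Pax5 and array 3 of Pax5 leukemia, stayed below the dim level. The difference between the leukemia groups was 0.18 (95% interval -0.0592 to 0.416, limma adjusted p = 0.358). A dim probe set bounds a change poorly.

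Cd247, the zeta chain with the most phosphorylation motifs, showed no difference that passed. Its lowest, median and highest levels were 6.76, 7.32 and 8.07 in Bank1/Pax5 leukemia and 6.49, 6.82 and 7.98 in Pax5 leukemia, against 7.56, 7.25, 7.22 and 7.37 in WT. In Pax5 leukemia arrays 1 (7.89) and 4 (7.98) stood above the other 4, which lay between 6.49 and 6.90. The difference between the leukemia groups was 0.24 (95% interval -0.328 to 0.808, limma adjusted p = 0.623).

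**Figure D1:**
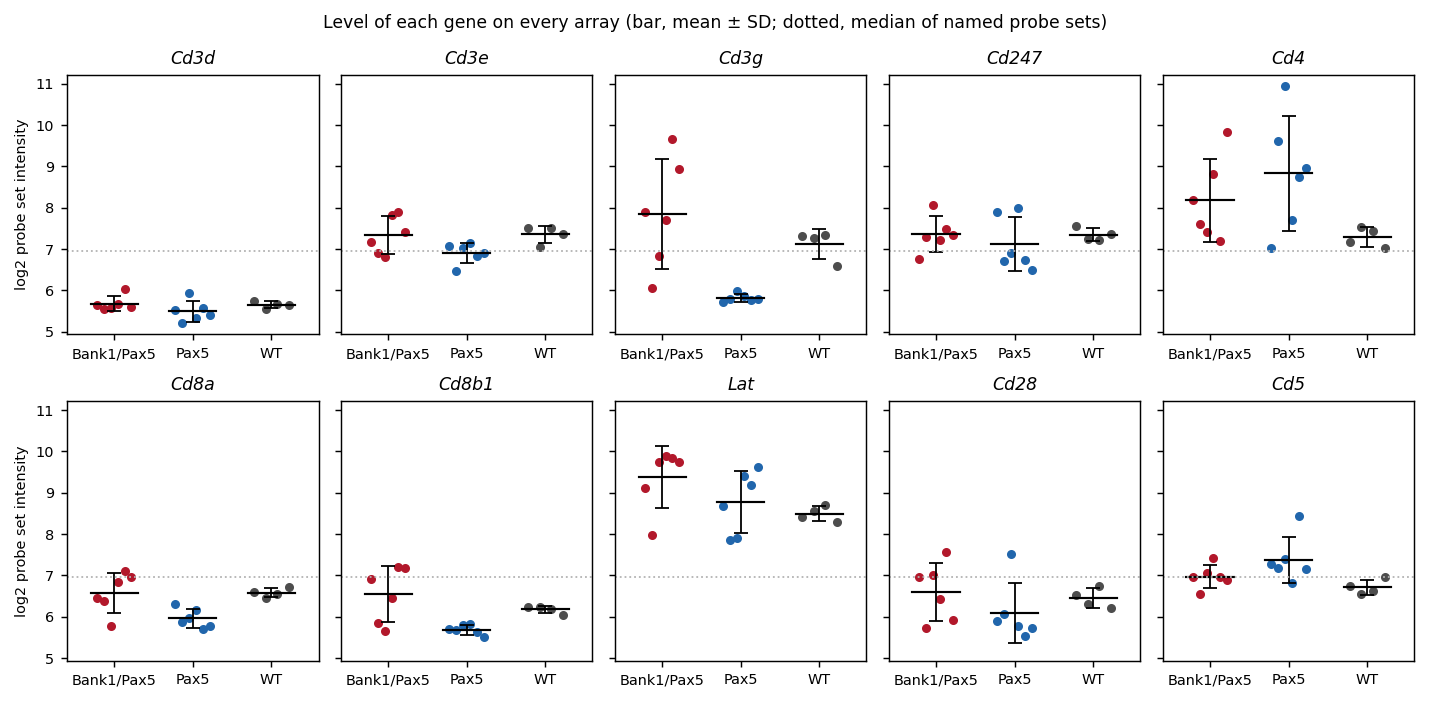
Level of the 10 genes on each array, as log2 probe set intensity, for Bank1/Pax5 leukemia (6 arrays), Pax5 leukemia (6) and WT precursors (4). Points are arrays, bars are the mean ± SD, and the dotted line is the median of named probe sets at 6.96. Cd3g sits between 6.07 and 9.67 in Bank1/Pax5 leukemia, above all Pax5 leukemia arrays (5.73 to 5.98), while Cd3d stays below the line throughout.

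The CD8 coreceptor chains, like Cd3g, had higher means in Bank1/Pax5 than in Pax5 leukemia. Cd8b1, the beta chain found on conventional CD8 T cells, had lowest, median and highest levels of 5.66, 6.69 and 7.20 in Bank1/Pax5 leukemia and 5.50, 5.69 and 5.83 in Pax5 leukemia. WT arrays had 6.24, 6.24, 6.19 and 6.05. Arrays 1, 5 and 6 of Bank1/Pax5 leukemia were highest, at 6.92, 7.20 and 7.19, and array 3 (5.66) lay within the Pax5 leukemias. The mean was 1.81-fold higher in Bank1/Pax5 leukemia relative to Pax5 leukemia (log2 difference 0.86, SE 0.233, limma adjusted p = 0.0408). The call was narrow: it ended in 17 of 26 alternative settings, among them the fit of these 2 groups alone (limma adjusted p = 0.107). Its mean was dim in all 3 groups.

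Cd8a, the alpha chain, had lowest, median and highest levels of 5.77, 6.64 and 7.10 in Bank1/Pax5 leukemia and 5.70, 5.93 and 6.30 in Pax5 leukemia. WT arrays had 6.61, 6.46, 6.54 and 6.72. All Pax5 leukemia arrays lay below all WT arrays, and Cd8a fell by 0.62 on the log2 scale in Pax5 leukemia relative to WT (SE 0.208, limma adjusted p = 0.0452). That call ended in 14 of 26 alternative settings, including the omission of any 1 WT array (limma adjusted p from 0.0649 to 0.124). Bank1/Pax5 leukemia and WT had the same mean of 6.58, with a 95% interval of the difference from -0.445 to 0.445. Between the leukemia groups Cd8a differed by 0.62 (95% interval 0.217 to 1.01) and missed the threshold (limma adjusted p = 0.0626). It passed in 1 of 26 alternative settings, without array 3 of Bank1/Pax5 leukemia, the lowest of its group at 5.77 (difference 0.78, limma adjusted p = 0.00634). Its mean was dim in each group.

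Cd4, the coreceptor of helper T cells, had the widest spread of the 10 within Pax5 leukemia, where its mean was also higher. Its lowest, median and highest levels were 7.20, 7.90 and 9.83 in Bank1/Pax5 leukemia and 7.02, 8.86 and 10.94 in Pax5 leukemia. WT arrays had 7.18, 7.52, 7.44 and 7.02. Array 3 (10.94) and array 2 (9.61) of Pax5 leukemia and array 6 (9.83) of Bank1/Pax5 leukemia were highest, and array 1 of Pax5 leukemia lay at the level of WT. The mean difference from WT was 1.54 in Pax5 leukemia (95% interval 0.154 to 2.93, limma adjusted p = 0.0992) and 0.88 in Bank1/Pax5 leukemia (95% interval -0.502 to 2.27, limma adjusted p = 0.367). Neither passed, nor did the difference of -0.66 between the leukemia groups (95% interval -1.90 to 0.584, limma adjusted p = 0.529). Without array 1 of Pax5 leukemia its difference from WT was 1.90 and passed (limma adjusted p = 0.0311). This difference passed in 2 of 27 alternative settings. The 3 arrays with the most Cd4 had low Cd8b1 in Pax5 leukemia (5.80 on array 3 and 5.67 on array 2) and high Cd8b1 in Bank1/Pax5 leukemia (7.19 on array 6).

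Siglech, a receptor that marks plasmacytoid dendritic cells, was at 12.56 on array 3 of Pax5 leukemia and at 11.93 on array 6 of the Bank1/Pax5 group, but at 6.85 on array 2 of Pax5 leukemia. Siglech was 11.43, 11.18, 11.04 and 11.23 in WT, where Cd4 was low. Over 9 measured dendritic cell markers the median was 6.40 to 8.07 on the Bank1/Pax5 arrays, 6.02 to 7.28 on the Pax5 arrays and 6.89 to 7.12 on the WT arrays, with 3, 6 and 4 of the 9 dim on average. The part of dendritic cells in the Cd4 levels was not tested.

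Lat, the adaptor phosphorylated by Zap70, lay, like Cd4, above the dim level on all 16 arrays. Its lowest, median and highest levels were 7.97, 9.75 and 9.88 in Bank1/Pax5 leukemia and 7.85, 8.94 and 9.61 in Pax5 leukemia. WT arrays had 8.42, 8.56, 8.70 and 8.29. The other Bank1/Pax5 arrays lay between 9.11 and 9.88, above all WT arrays, while array 2 (7.97) lay below all of those. Pax5 leukemia was split, with arrays 4, 5 and 6 at 9.41, 9.19 and 9.61 and arrays 2 and 3 at 7.85 and 7.91. Lat differed from WT by 0.89 in Bank1/Pax5 leukemia (SE 0.406, limma adjusted p = 0.143) and by 0.28 in Pax5 leukemia (SE 0.406, limma adjusted p = 0.643), and neither passed. Without array 2 of Bank1/Pax5 leukemia its difference from WT was 1.17 and passed (limma adjusted p = 0.0226). This difference passed in 3 of 27 alternative settings.

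Platelets carry Lat, and markers of megakaryocytes and platelets were high in the leukemic marrow. All 4 measured of 7 listed rose in both leukemia groups relative to WT. Of all genes, 9.53% were called higher in Pax5 leukemia and 6.8% in Bank1/Pax5 leukemia relative to WT. Their median was 9.49 to 11.76 on the Bank1/Pax5 arrays, 8.83 to 11.54 on the Pax5 arrays and 6.67 to 6.82 on the WT arrays. In Pax5 leukemia array 6 had the most Lat and the highest platelet median (9.61 and 11.54). Array 4 had a Lat level of 9.41 with a platelet median of 9.42. The part of platelets in the Lat levels was not tested.

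Cd28, the costimulatory receptor that binds CD80 and CD86, was dim on most arrays. Its lowest, median and highest levels were 5.73, 6.70 and 7.55 in Bank1/Pax5 leukemia and 5.55, 5.84 and 7.52 in Pax5 leukemia, against 6.53, 6.32, 6.75 and 6.22 in WT. Array 3 of Pax5 leukemia (7.52) lay far above the rest (5.55 to 6.06). In Bank1/Pax5 leukemia arrays 5, 3 and 1 were highest, at 7.55, 7.01 and 6.97. The difference between the leukemia groups was 0.51 (95% interval -0.228 to 1.25, limma adjusted p = 0.400). It passed in 1 of 27 alternative settings, without array 2 of Bank1/Pax5 leukemia and array 3 of Pax5 leukemia (limma adjusted p = 0.0246). That setting was chosen after the values were seen.

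The 4 leukemia arrays with the most Cd28 also had the most Mcpt8, a protease of basophils: 8.54, 7.67 and 8.50 on arrays 5, 3 and 1 of the Bank1/Pax5 group and 8.22 on array 3 of Pax5 leukemia. The other 8 leukemia arrays had Mcpt8 between 4.81 and 5.63, and Mcpt8 was picked for its likeness to Cd28. On 3 of these 4 arrays Pax5 was at its lowest, with 8.02 and 7.85 on arrays 5 and 1 of the Bank1/Pax5 group and 7.52 on array 3 of Pax5 leukemia. Pax5 was 10.82 on array 3 of Bank1/Pax5 leukemia. The median over 7 mast cell and basophil markers ran from 5.27 to 7.81 on the Bank1/Pax5 arrays, from 5.16 to 7.41 on the Pax5 arrays and from 5.33 to 6.38 on the WT arrays. Of these markers, 3 had dim means over the Bank1/Pax5 arrays, 5 over the Pax5 arrays and 6 over the WT arrays. Their part in the Cd28 levels was not tested.

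Cd5, the inhibitory receptor of T cells and B-1 cells, had its higher mean in Pax5 leukemia. Its lowest, median and highest levels were 6.55, 6.95 and 7.41 in Bank1/Pax5 leukemia and 6.80, 7.23 and 8.45 in Pax5 leukemia, against 6.75, 6.54, 6.62 and 6.95 in WT. Array 5 of Pax5 leukemia (8.45) was the highest of all 16, and the groups overlapped. Cd6, a related receptor chosen for mention after its values were seen, was also highest on that array (8.12). The median over the B cell precursor markers was 8.07 on that array, 7.52 on array 3 and 11.22 to 12.06 on the other Pax5 leukemia arrays. Pax5, which is among these markers, was 11.82 on array 5 and 7.52 on array 3 of Pax5 leukemia. Cd5 differed from WT by 0.66 in Pax5 leukemia (95% interval 0.138 to 1.18, limma adjusted p = 0.0643) and by 0.26 in Bank1/Pax5 leukemia (95% interval -0.264 to 0.777, limma adjusted p = 0.495). The leukemia groups differed by -0.40 (95% interval -0.869 to 0.0630, limma adjusted p = 0.289). None of the 3 passed. Without array 4 of Pax5 leukemia the difference of Pax5 leukemia from WT was 0.77 and passed (limma adjusted p = 0.0335). This difference passed in 3 of 27 alternative settings.

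**Figure D2:**
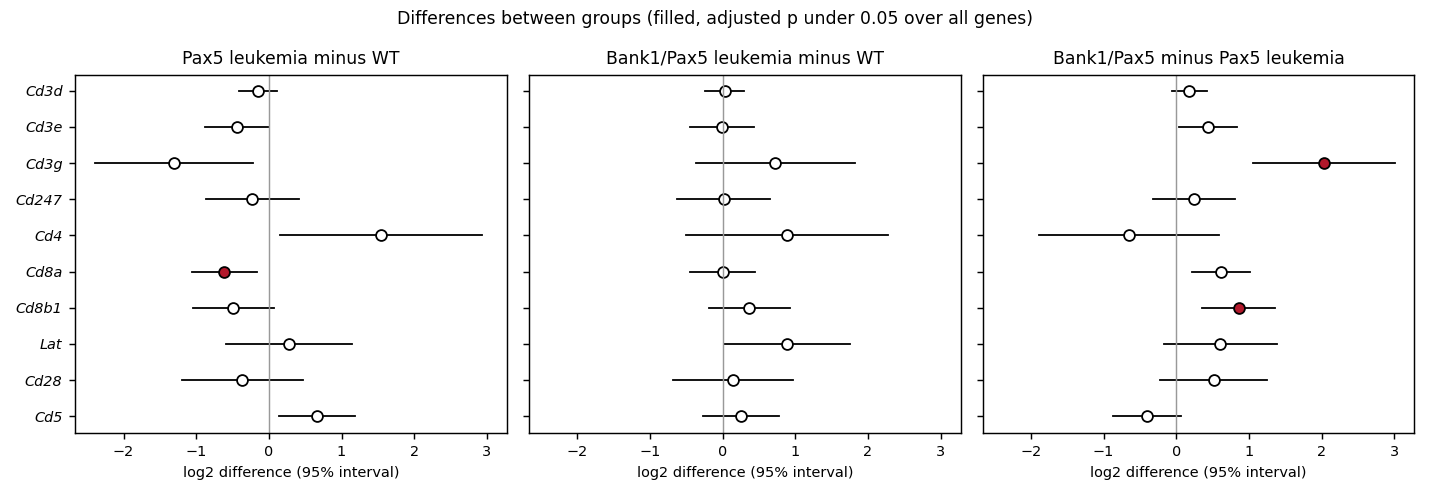
Log2 difference of each gene in the 3 comparisons, with 95% intervals from limma. Filled points passed an adjusted p of 0.05 over all genes. Cd3g (2.03) and Cd8b1 (0.86) passed between the leukemia groups and Cd8a (-0.62) between Pax5 leukemia and WT.

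In counts, 2 of the 10 genes rose and none fell in Bank1/Pax5 relative to Pax5 leukemia, where 6.7% of all genes tested were called, 1.71% higher and 5% lower. The median difference of the 10 was 0.47, beside 0.02 over all genes. Cd3g was the 1 member whose leukemia groups did not overlap, as was so for 2.7% of all genes. In Pax5 leukemia relative to WT, 1 of the 10 fell and none rose, where 23.3% of all genes were called, 9.53% higher and 13.8% lower, and the median difference was -0.30 beside -0.05 over all genes. Cd3g, Cd8a and Cd8b1 lay wholly below WT there and no member lay wholly above, where the groups did not overlap for 24.8% of all genes. In Bank1/Pax5 leukemia relative to WT, limma called none of the 10, where 19.6% of all genes were called, 6.8% higher and 12.8% lower, and the median difference was 0.20 beside -0.03 over all genes. No member was without overlap there, as was so for 19.6% of all genes. Lat had an unadjusted p under 0.05 in that comparison (0.0454), and it was the only one of the 10. The 2 comparisons with WT share the WT arrays.

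**Figure D3:**
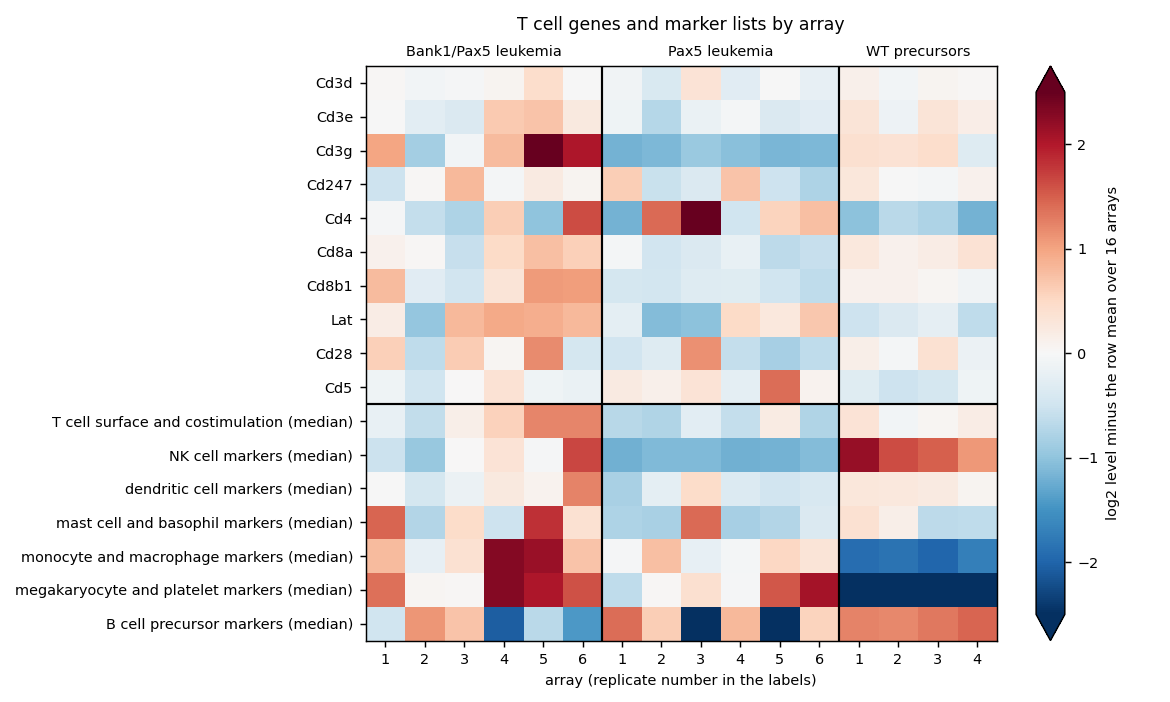
Level of the 10 genes (upper rows) and the median level of 7 gene lists (lower rows) on each array, as log2 level minus the mean of that row over the 16 arrays. Columns are arrays in the order Bank1/Pax5 leukemia, Pax5 leukemia, WT, and values past the colour bar take its end colours. Cd3g is high on arrays 5 and 6 of the Bank1/Pax5 group and low on all Pax5 leukemia arrays, Cd4 is highest on array 3 of Pax5 leukemia, and Cd28 is highest on array 5 of Bank1/Pax5 and array 3 of Pax5 leukemia.

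The receptor chains themselves were hardly measured. Of 8 listed constant or pre-T chains only Ptcra, the pre-T alpha chain, had a probe set of its own here, and it was dim in all groups with no call. Its difference between the leukemia groups was 0.14 (limma adjusted p = 0.270). Another 9 T cell receptor gene segments had a probe set each, a set taken up after the values were seen. Dim means were found for 7 of the 9 over the Bank1/Pax5 arrays, 8 over the Pax5 arrays and 8 over the WT arrays. Between the leukemia groups 8 had a higher mean in Bank1/Pax5 leukemia and 1 a lower mean (median difference 0.07). There 1 of the 9 lay wholly above Pax5 leukemia, where the groups did not overlap for 2.7% of all genes. None of the 9 was called in any of the 3 comparisons by limma. Their median level was 4.84 to 5.17 on the Bank1/Pax5 arrays, 4.80 to 5.01 on the Pax5 arrays and 4.89 to 4.97 on the WT arrays.

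Of 27 measured genes of T cell receptor signalling, 1 rose and 1 fell in Bank1/Pax5 relative to Pax5 leukemia, where 6.7% of all genes were called. Txk, a Tec family kinase of T and NK cells, rose by 0.91 (SE 0.241, limma adjusted p = 0.0369). Csk, the kinase that inhibits Lck, fell by 0.51 on the log2 scale (SE 0.0923, limma adjusted p = 0.00608). In Pax5 leukemia relative to WT 2 of the 27 rose (Ptpn22 at 1.48 and Grap2 at 1.12) and 7 fell, where 23.3% of all genes were called. Those of smallest p were Txk at -1.36, the adaptor Nck1 at -0.43, the adaptor Skap1 at -0.53 and Bcl10, which links antigen receptors to NF-kB, at -0.51. In Bank1/Pax5 leukemia relative to WT 1 rose (Grap2 at 1.21) and 6 fell, where 19.6% of all genes were called. Those of smallest p were Csk at -0.85, Nck1 at -0.47, the ubiquitin ligase gene Cblb at -0.92 and the inhibitory adaptor gene Sit1 at -1.49. The median differences in these 3 comparisons were -0.01, -0.34 and -0.23. Zap70, which binds the CD3 tails, was dim on average in each group and differed by 0.42 between the leukemia groups (limma adjusted p = 0.349). Lck was not analysed here.

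Of 18 measured genes of T cell surface receptors and costimulation, limma called none between the leukemia groups, where 6.7% of all genes were called. The median difference was 0.69, beside 0.02 over all genes. The receptors Cd27, at 1.58 (limma adjusted p = 0.0506), and Cd7, at 2.26 (limma adjusted p = 0.0924), came near the threshold. In Pax5 leukemia relative to WT 1 rose (Slamf1, at 1.65) and 4 fell, where 23.3% of all genes were called. Those that fell were the adhesion receptor Cd2 at -3.85, Cd7 at -3.96, the interleukin receptor chain Il2rb at -2.59 and Cd27 at -1.89. In Bank1/Pax5 leukemia relative to WT Slamf1 rose by 2.39 and Cd2 was at -2.74. These were the calls made, where 19.6% of all genes were called. Cd2 was 10.87 to 11.10 in WT and thus far above the dim level in labelled pro-B and pre-B cells.

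Of 11 measured T lineage transcription factors, 1 rose between the leukemia groups, where 6.7% of all genes were called. Tbx21, which directs type 1 T cells and NK cells, rose by 0.38 in Bank1/Pax5 relative to Pax5 leukemia (SE 0.0905, limma adjusted p = 0.0237). Relative to WT, Tbx21, Ets1 and Lef1 fell in both leukemias and none of the 11 rose. Of all genes, 23.3% were called in Pax5 leukemia and 19.6% in Bank1/Pax5 leukemia relative to WT. Lef1, an effector of WNT signalling that B cell precursors also use, was at -3.34 in Bank1/Pax5 leukemia and -2.92 in Pax5 leukemia. Ets1 was at -1.13 and -0.88 in the same order. Gata3 and Bcl11b, which establish T cell identity, were not called in any of the 3 comparisons.

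Of 11 measured NK cell markers, 3 rose in Bank1/Pax5 relative to Pax5 leukemia, where 1.71% of all genes were called higher. They were Eomes by 0.92, the receptor gene Klrk1 by 1.33 and perforin, Prf1, by 0.44. The median over the list was 5.73 to 8.34 on the Bank1/Pax5 arrays, 5.48 to 5.59 on the Pax5 arrays and 7.76 to 8.85 on the WT arrays. As a group the WT fraction thus had the highest NK levels, though array 6 of Bank1/Pax5 leukemia (8.34) lay within the WT range. The mean was higher in Bank1/Pax5 leukemia than in WT for 2 of the 11 and lower for 9. Dim means were found for 6 of the 11 over the Bank1/Pax5 arrays, 9 over the Pax5 arrays and 2 over the WT arrays. Ncr1, a receptor that defines NK cells, was 9.02 on array 6 of Bank1/Pax5 leukemia and 5.38 to 7.07 on the others, against 5.43 to 5.59 in Pax5 leukemia and 9.11 to 10.03 in WT. On Bank1/Pax5 arrays 1 to 6 the NK median was 6.14, 5.73, 6.68, 7.01, 6.65 and 8.34. Cd3g on the same arrays was 7.90, 6.07, 6.83, 7.71, 9.67 and 8.93. Array 2 was thus lowest in both, while array 5 had the most Cd3g and array 6 the highest NK median. Cd3g was 5.73 to 5.98 on the Pax5 arrays. The part of NK cells in the Cd3g and Cd8b1 levels was not tested.

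Monocyte and macrophage markers had a median of 8.10 to 10.59 on the Bank1/Pax5 arrays, 8.10 to 9.05 on the Pax5 arrays and 6.31 to 6.60 on the WT arrays. Of these 10, 8 rose in Bank1/Pax5 leukemia relative to WT, where 6.8% of all genes were called higher. In Pax5 leukemia relative to WT 5 rose, where 9.53% of all genes were called higher. Between the leukemia groups 1 rose (Adgre1), where 1.71% of all genes were called higher in Bank1/Pax5 leukemia. Of 10 neutrophil markers limma called none against WT in either leukemia, and none had an unadjusted p under 0.05. Leukemic samples were total marrow and WT samples a pro-B and pre-B fraction by their labels, so sample type and genotype cannot be told apart in the comparisons with WT.

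Among the members, the pattern over the 12 leukemia arrays was closest for Cd3g with Cd8b1 (r = 0.95), then for Cd8a with Cd8b1 (r = 0.89) and Cd3e with Cd8a (r = 0.88). Cd4 and Cd247 ran most oppositely (r = -0.62). These coefficients describe 12 arrays of 2 groups, and part of each comes from the difference between the groups.

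By the rule of highest Pearson r to the mean of the 4 CD3 chains over the 12 leukemia arrays, the closest genes were Tigit (r = 0.96), Nrg2 (0.96), Gzmk (0.92), Sh2d1a (0.91) and Trappc3l (0.90). Over all 16 arrays they were Tigit (0.95), Dcaf8l (0.88), Gzmk (0.87), Apol10b (0.85) and Trappc3l (0.84). Cd3g alone had r = 0.965 with Tigit over the leukemia arrays. Cd247 had r = 0.03, 0.24 and 0.13 with Cd3d, Cd3e and Cd3g there, so the 4 chains did not all vary together. Part of each r again comes from the difference between the groups. Tigit encodes an inhibitory receptor of T and NK cells, Gzmk a granzyme and Sh2d1a the adaptor SAP of lymphocytes. The range over the leukemia arrays was 1.95 for Tigit and 1.36 for Gzmk, but 0.354 for Trappc3l, so some of these genes hardly varied. Tigit ran from 6.71 to 8.52 on the Bank1/Pax5 arrays, from 6.56 to 6.95 on the Pax5 arrays and from 7.14 to 7.48 on the WT arrays. Since Tigit was picked by its likeness to the CD3 chains on these arrays, its levels are given with no test. For Cd28, a search made after its values were seen gave Mcpt8 (r = 0.93 over the 12 leukemia arrays) as the closest gene.

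**Figure D4:**
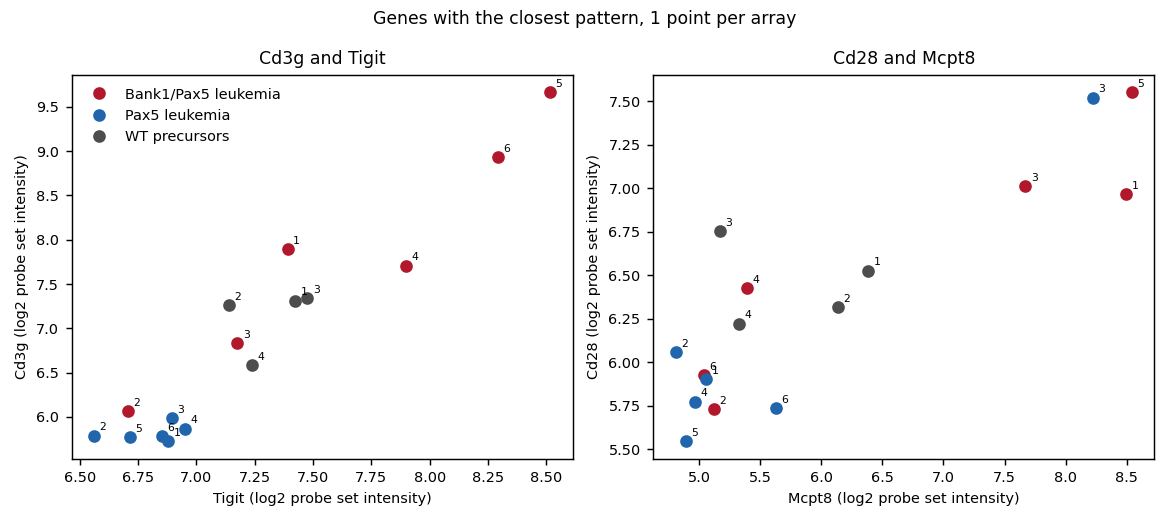
Each point is 1 array, numbered by replicate; axes are log2 probe set intensities of Cd3g against Tigit (left) and Cd28 against Mcpt8 (right). Bank1/Pax5 arrays 5 and 6 have the most Cd3g and Tigit, and the 4 leukemia arrays with the most Cd28 are those with Mcpt8 between 7.67 and 8.54.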

How the data were processed

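Total RNA was extracted with Trizol, biotin labelled and hybridised to 16 arrays, per the labels' protocols. The authors deposited log2 probe set intensities made with RMA through the oligo package, per the submitters' processing notes; their versions, any filter and the genome build were not given in the sources used here. Array medians were 6.58 to 6.71, and the number of arrays limits precision. Of 35556 probe sets, 21789 named 1 gene; 91 kept a symbol that the gene records could not update. The probe set of highest mean was kept per gene, which left 19938 genes. One limma 3.58.1 model (R 4.3.3) with a mean per group was fitted to all 16 arrays, with empirical Bayes moderation and two-sided tests, and SE is the moderated standard error. Simulated data with 200 genes changed were used to check the fit, and with 1 common spread false calls stayed near the nominal share. With each group's own spread they exceeded it in Bank1/Pax5 minus Pax5 leukemia (20.8%) and, less so, in Bank1/Pax5 leukemia minus WT (7.57%).

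The members and lists were chosen with earlier results of these data known. Named by rule were the 10 members, up to 4 called genes of smallest p per T cell list and comparison, and the 5 genes closest in pattern to the CD3 chains. Named in addition, outside that rule, were Ptcra, Ptpn22, Grap2, Zap70, Gata3 and Bcl11b. So were Slamf1 in Pax5 leukemia minus WT, and Cd7 and Cd27 between the leukemia groups. Other genes are marked as chosen later or as cell type markers. The fit was repeated without dim genes, with all probe sets of a gene averaged, after cyclic loess or median centring, with a trended prior variance and robust moderation, and with weights per array. It was also repeated on the 2 groups of a comparison alone, with replicate number as a block, against a 1.2-fold minimum, and without each array in turn. Same-numbered arrays of the 2 leukemia groups had deviations from their group means that correlated at -0.379 to 0.122, so the numbers were not taken as pairs.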

Additional observations from a re-analysis of the deposited data

Results flagged for a closer look

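Of 30 groups of values (10 genes in 3 groups), 4 held 1 array far from the rest, and chance alone gives about 1 in 20. Cd3d was 6.05 on array 5 of Bank1/Pax5 leukemia, with the others between 5.54 and 5.68. Cd28 was 7.52 on array 3 of Pax5 leukemia, with the others between 5.55 and 6.06. Cd5 was 8.45 on array 5 of Pax5 leukemia, with the others between 6.80 and 7.40. Cd3g was 6.59 on array 4 of WT, with the others between 7.26 and 7.34.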

How the results depend on the processing

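Cd3g kept its call between the leukemia groups in 25 of 27 alternatives (limma adjusted p from 0.00372 to 0.193) and lost it with only the 2 groups compared (0.0617) and with a 1.2-fold minimum (0.193). The filter on dim genes kept 7 of the 10 and dropped Cd3d, Cd8a and Cd8b1, so the Cd8a call against WT was not retried with it. In Bank1/Pax5 minus Pax5 leukemia the number of members called was 2, and it was 1 with that filter, with cyclic loess or with the replicate block. It was 0 with only the 2 groups compared, 0 with the 1.2-fold minimum, and 1 to 3 when an array was left out. In Pax5 leukemia minus WT it was 1, and 0 with cyclic loess, median centring, the replicate block or the 1.2-fold minimum, 4 with only these 2 groups, 6 with array weights and 0 to 2 with an array left out. In Bank1/Pax5 leukemia minus WT it was 0, and 1 (Lat) with array weights or without array 2 of Bank1/Pax5 and array 3 of Pax5 leukemia, and 0 to 1 with an array left out.

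Over all genes, Pax5 leukemia minus WT gave 4655 calls (1901 higher, 2754 lower), 8104 with array weights, 1373 with the 1.2-fold minimum and 3072 to 5560 with an array left out (3072 without WT array 4). Bank1/Pax5 leukemia minus WT gave 3899 (1356 higher, 2543 lower), 6416 with centring over the genes tested, 6486 with array weights, 2542 with the replicate block, 1244 with the 1.2-fold minimum and 2678 to 4531 with an array left out. Bank1/Pax5 minus Pax5 leukemia gave 1336 (340 higher, 996 lower), 446 with only the 2 groups, 696 with the replicate block, 21 with the 1.2-fold minimum, 2068 without the 2 arrays that stood apart and 725 to 1742 with an array left out (725 without array 5 of Bank1/Pax5, 870 and 846 without array 4 or 5 of Pax5 leukemia). Higher against lower calls split 2253 and 2225 with cyclic loess, 2021 and 1953 with median centring and 1644 and 3633 with centring over the genes tested in Pax5 leukemia minus WT. In Bank1/Pax5 leukemia minus WT the splits were 2034 and 2012, 1495 and 2099, and 1086 and 5330, and between the leukemia groups cyclic loess gave 451 and 588 and centring over the genes tested 167 and 1185. Centring over the genes tested and leaving out 2 arrays were chosen after seeing the data.

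Sign turns were found in Bank1/Pax5 leukemia minus WT alone, for members near 0 and with no call. Cd3e was 0.0411 with cyclic loess, 0.0231 with median centring, 0.0794 without the 2 arrays and -0.120 to 0.0981 with an array left out. Cd8a was 0.0410, 0.0303 and 0.0404 in the same settings and -0.105 to 0.162 with an array left out. Cd3d was -0.0691 with centring over the genes tested, -0.00559 with the replicate block and -0.0438 to 0.0588 with an array left out. Cd247 was -0.0856 with that centring, -0.0145 with array weights and -0.130 to 0.134 with an array left out, and Cd28 was -0.0427 to 0.322. The cause was not tested. Dim probe sets (the mean of Cd3d, Cd8a, Cd8b1 and Cd28 in every group) limit what a difference says about expression.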
